A study of Homo sapiens with 9 samples.

Results

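The genes of fatty acid synthesis, elongation and desaturation were followed across 3 states of LNCaP, an established human prostate cancer cell line that responds to androgen. They were FASN, ACACA, ACLY, SCD, FADS1, FADS2, ELOVL5, ELOVL6, ELOVL7 and the transcription factor gene SREBF1, 10 genes of 60880 gene rows. They were found by symbol, through Ensembl identifiers, and all 10 were among the 18389 genes with enough counts to test. RNA sequencing covered 3 groups of 3 libraries each. In the rescue group UGT2B28 was overexpressed in the knockdown background, with G418 at 1 mg/mL for selection. The knockdown group carried the UGT2B28 knockdown, with puromycin at 3 µg/mL. The control group was labelled NT, and its selection is not given in the sources used here. All groups were LNCaP cells in RPMI with 10% serum at a labelled time of 24 h, and UGT2B28 encodes a UDP-glucuronosyltransferase that conjugates steroids. A single knockdown line was sequenced, and the rescue was made from it. Whether replicates were separate cultures is not stated, so each p-value measures the spread among these libraries, which may be purely technical.

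Cells build fatty acids from citrate. ACLY cleaves citrate to cytosolic acetyl-CoA, ACACA carboxylates acetyl-CoA to malonyl-CoA, and FASN joins these units into palmitate. Elongases of the ELOVL family extend fatty acyl-CoAs in the endoplasmic reticulum, while SCD, FADS1 and FADS2 insert double bonds. SREBF1 encodes SREBP-1, a membrane-held factor that is released by proteolysis and then activates most of these enzyme genes. In the prostate, androgen is known to raise lipogenic gene expression, and high FASN is a known feature of prostate cancer.

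Gene counts summed to 20300744 to 26459528 per library. UGT2B28 itself (ENSG00000135226.17_3) had 1124, 1554 and 1857 counts in rescue libraries, 17, 8 and 1 in knockdown libraries, and 25, 4 and 10 in control libraries. The rescue libraries stood far above all others, while knockdown and control libraries overlapped at very low counts. Knockdown against control gave a log2 fold change of -0.60 with an SE of 0.62 (edgeR adjusted p = 0.52), so these counts did not show a lower UGT2B28 level in the libraries labelled knockdown. Luminal prostate markers summed to 8575 to 9478 CPM (counts scaled to a common library size) in rescue, 8569 to 9047 CPM in knockdown and 3811 to 4093 CPM in control. All 8 of those markers averaged above 1 CPM, and 7 of the 8 were called higher in knockdown than in control, beside 16.5% of all tested genes. KLK3, KLK2 and TMPRSS2 had the largest of these increases, while KRT8 averaged 871 ± 42.4 CPM in rescue, 1062 ± 79.3 CPM in knockdown and 1011 ± 17.2 CPM in control and was not called in knockdown against control (edgeR adjusted p = 0.52). In rescue against knockdown 2 of the 8 luminal markers were called higher and 2 lower, KLK2 and KRT8, beside 5.20% and 4.88% of all tested genes. In rescue against control 6 of the 8 were called higher and 1 lower, KRT8, beside 19.0% and 18.8% of all tested genes. KLK3, the largest part of each luminal sum, averaged 4403 CPM in rescue, 3746 CPM in knockdown and 1426 CPM in control. Of 5 adipocyte markers, ADIPOQ and FABP4 had no counts in any library, and the 5 together summed to 1.22 to 4.30 CPM in rescue, 2.67 to 3.36 CPM in knockdown and 1.496 to 1.99 CPM in control. Endothelial markers summed to 5.37 to 7.22 CPM in rescue, 5.15 to 6.17 CPM in knockdown and 1.76 to 3.07 CPM in control, and basal markers to 2.99 to 4.75, 3.40 to 5.47 and 1.95 to 3.20 CPM in those groups. Fibroblast markers summed to 58.9 to 71.1 CPM in rescue, 43.5 to 53.2 CPM in knockdown and 62.1 to 72.0 CPM in control. In the adipocyte, endothelial, basal and fibroblast lists only 1 marker each averaged above 1 CPM over the 9 libraries: PLIN1, VWF, KRT14 and COL1A1. COL1A1 alone averaged 63.1 CPM in rescue, 48.3 CPM in knockdown and 68.1 CPM in control. COL1A2, DCN and LUM had at most 1 count in any library, and PECAM1 was not found by symbol. Only 1 endothelial, 2 basal and 2 fibroblast markers had enough counts to test. In knockdown against control VWF, KRT14 and PDGFRB were called higher and KRT15 and COL1A1 lower, beside 16.5% and 15.6% of all tested genes. Counts were very low for PDGFRB (26, 14 and 14 in knockdown, 8, 1 and 3 in control) and KRT15 (1, 1 and 0 in knockdown, 22, 9 and 9 in control). Mitochondrially encoded genes took 3.19% to 3.86% of gene counts in rescue, 2.56% to 2.89% in knockdown and 4.64% to 5.68% in control. The summed luminal markers, VWF and the mitochondrial share thus differed between control and both other groups. Of the 10 lipogenic genes described here, 8 were called higher than control in both other groups, all but ELOVL6 and SREBF1. Among all tested genes, 16.5% were called higher than control in knockdown and 19.0% in rescue. The share called higher in both groups at once is not given here. Both comparisons use the same control libraries, so a call in one is not independent of a call in the other. The part of the marker genes and of the mitochondrial share in the results was not tested.

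All 9 enzyme genes were higher in knockdown than in control at an adjusted p under 0.05, while SREBF1 was not called. Across all tested genes, 32.1% were called in knockdown against control, 16.5% higher and 15.6% lower. The median log2 fold change of the 10 genes was 0.78, beside 0.01 over all 18389 tested genes. The largest changes were those of ELOVL7, FASN and FADS2, between 2.49-fold and 3.39-fold. In bulk RNA a larger share of cells of a type and more RNA per cell cannot be told apart. Together the 10 genes took 1.33% ± 0.0451 of gene counts in rescue, 1.13% ± 0.0654 in knockdown and 0.627% ± 0.0577 in control (SD, n = 3 each), and FASN alone took 0.559%, 0.475% and 0.193% in those groups.

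**Figure D1:**
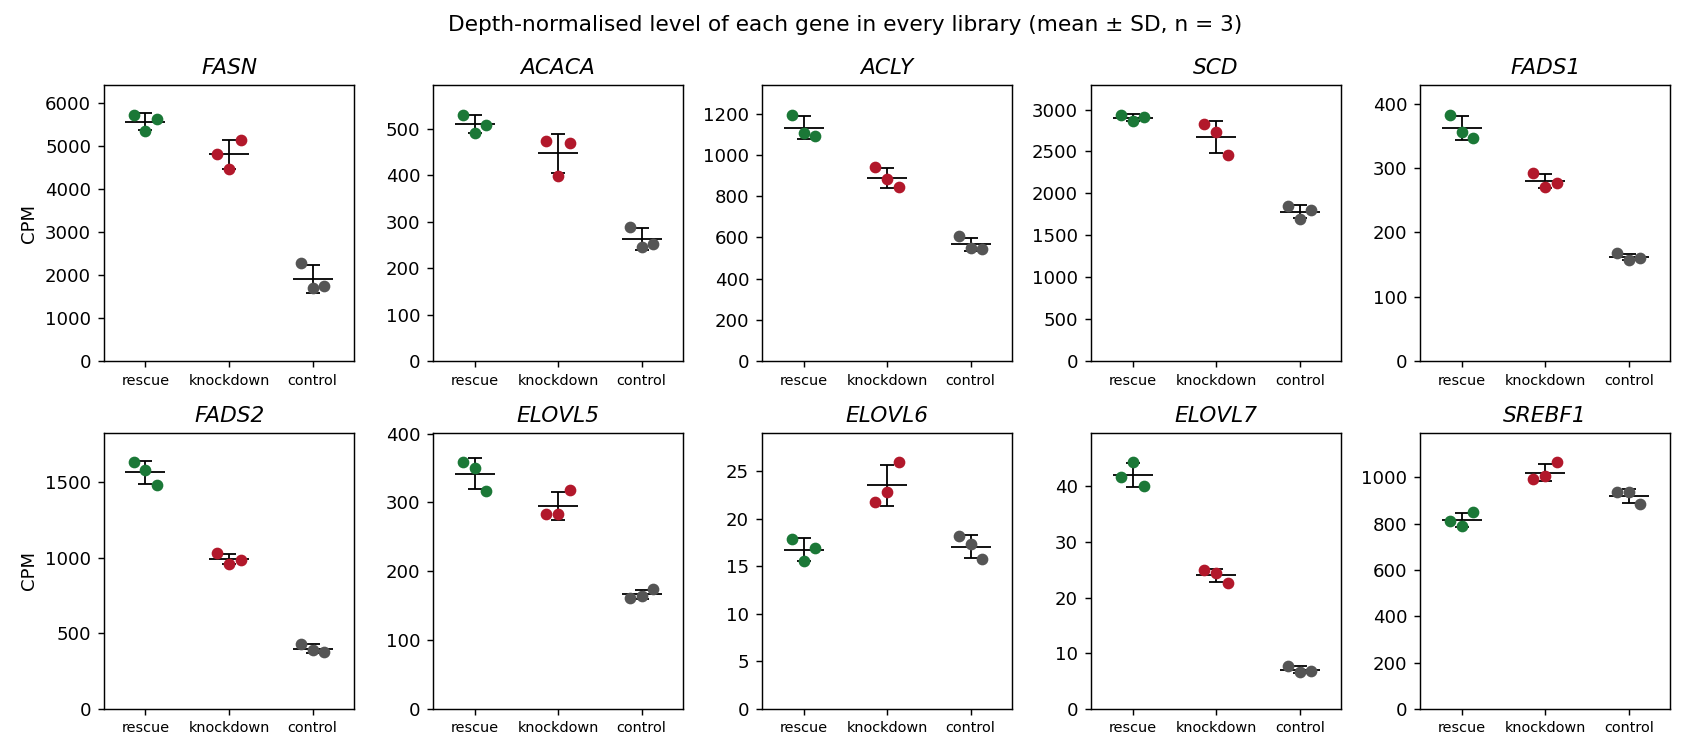
Level of each of the 10 genes in CPM (vertical axis, linear from 0) in every rescue, knockdown and control library; points are libraries, and bars give the mean and SD of 3 libraries. For 8 enzyme genes every rescue and knockdown library lies above every control library, for ELOVL6 only the knockdown libraries do, and SREBF1 is lowest in rescue.

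FASN (ENSG00000169710.8_3), which encodes the multidomain synthase that makes palmitate, had the highest mean CPM of the 10 in each group. Its level was 5740, 5358 and 5633 CPM in rescue libraries, 4812, 4478 and 5157 CPM in knockdown libraries, and 2277, 1693 and 1749 CPM in control libraries. No library of one group reached into the range of another. FASN rose 2.53-fold in knockdown against control, a log2 fold change of 1.34 with an SE of 0.10 (edgeR adjusted p = 9.5e-12). Control replicate 1 was the highest of its group, and without it this log2 fold change was 1.48. Rescue against knockdown gave a log2 fold change of 0.21, with a 95% interval of 0.02 to 0.41, which did not pass the adjusted threshold (edgeR adjusted p = 0.17). It passed without control replicate 1 (edgeR adjusted p = 0.041). Against control, rescue was 2.93-fold higher (edgeR adjusted p = 3.3e-13).

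ACLY (ENSG00000131473.16_3) supplies acetyl-CoA from citrate. It had 1195, 1105 and 1092 CPM in rescue libraries, 941.1, 881.7 and 842 CPM in knockdown libraries, and 604.3, 549.1 and 545 CPM in control libraries. The groups formed 3 separate steps, with rescue on top. The log2 fold change was 0.65 in knockdown against control (SE 0.08, edgeR adjusted p = 9.3e-08) and 0.35 in rescue against knockdown (SE 0.08, edgeR adjusted p = 0.0025). ACLY shares 156 exon bases, 2.99% of its exons, with an antisense gene in the GENCODE v29 models, and the strand setting of the counting is not given in the sources used here.

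ACACA (ENSG00000278540.4_4) encodes the carboxylase at the committed step of fatty acid synthesis. It had 531.1, 492.3 and 509.6 CPM in rescue libraries, 474.9, 399.2 and 468.7 CPM in knockdown libraries, and 289.3, 246.8 and 252.3 CPM in control libraries. Rescue and knockdown libraries lay close together, well above control. ACACA rose in knockdown against control by a log2 fold change of 0.77 (SE 0.08, edgeR adjusted p = 1.0e-08). In rescue against knockdown it had a log2 fold change of 0.19, with a 95% interval of 0.03 to 0.35 (edgeR adjusted p = 0.13). Its paralog ACACB, whose product serves mainly the control of fatty acid oxidation, fell in knockdown against control by 0.70 on the log2 scale (edgeR adjusted p = 3.4e-05).

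SCD (ENSG00000099194.5_2) encodes the desaturase that makes oleate and palmitoleate. Its level was 2941, 2865 and 2909 CPM in rescue libraries, 2825, 2737 and 2463 CPM in knockdown libraries, and 1846, 1695 and 1797 CPM in control libraries. The knockdown libraries sat just under the rescue libraries, and all 6 lay above control. The rise in knockdown against control was 0.59 on the log2 scale (SE 0.08, edgeR adjusted p = 8.8e-07). In rescue against knockdown the 95% interval of the log2 fold change ran from -0.04 to 0.28 around 0.12 (edgeR adjusted p = 0.40). Its promoter is shown as an example of an enzyme gene with CCAAT boxes, the sequence bound by NF-Y, a factor known to act beside SREBP at many lipogenic promoters. The window is chr10:100346983-100347282 on the plus strand of GRCh38.p14, from RefSeq, 250 bases before to 50 after the transcript start, with CCAAT on either strand in capitals.
SCD promoter: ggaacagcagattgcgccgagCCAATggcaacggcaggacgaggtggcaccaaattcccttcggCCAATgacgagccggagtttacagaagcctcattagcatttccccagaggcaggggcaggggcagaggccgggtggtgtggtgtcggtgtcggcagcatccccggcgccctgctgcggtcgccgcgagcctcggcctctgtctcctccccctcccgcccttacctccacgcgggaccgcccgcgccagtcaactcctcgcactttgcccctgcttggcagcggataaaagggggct
Its CCAAT boxes begin at -229 and -186 from the start.

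FADS2 (ENSG00000134824.13_3), the delta-6 desaturase gene of polyunsaturated fatty acid synthesis, separated all 3 groups most widely among the desaturases. It had 1632, 1584 and 1481 CPM in rescue libraries, 1031, 960.7 and 984.4 CPM in knockdown libraries, and 431.5, 386.9 and 378 CPM in control libraries. The lowest rescue library was well above the highest knockdown library, and the same held for knockdown over control. Its log2 fold change was 1.31 in knockdown against control (SE 0.08, edgeR adjusted p = 8.0e-14), 0.66 in rescue against knockdown (SE 0.08, edgeR adjusted p = 6.4e-07) and 1.97 in rescue against control (SE 0.08, edgeR adjusted p = 7.1e-18), the last a 3.92-fold difference.

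FADS1 (ENSG00000149485.18_3), its neighbour and the delta-5 desaturase gene, moved the same way with smaller log2 fold changes. It had 383, 356.4 and 346.2 CPM in rescue libraries, 291.6, 269.7 and 276.7 CPM in knockdown libraries, and 167.8, 157.7 and 159.6 CPM in control libraries. Again no library crossed between groups. The log2 fold change was 0.79 in knockdown against control (SE 0.07, edgeR adjusted p = 5.2e-10) and 0.37 in rescue against knockdown (SE 0.07, edgeR adjusted p = 4.9e-04).

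FADS1 and FADS2 lie on opposite strands of chromosome 11 and share 490 exon bases in the GENCODE v29 models, 4.79% of FADS1 exons and 4.44% of FADS2 exons. Without a known strand setting, reads in that stretch cannot be assigned to either gene. The third desaturase gene of the cluster, FADS3, went the other way. It averaged 35.6 ± 1.76 CPM in rescue, 52.0 ± 1.74 CPM in knockdown and 70.5 ± 9.71 CPM in control (SD, n = 3 each), and fell in knockdown against control by 0.44 (edgeR adjusted p = 6.3e-04) and in rescue against knockdown by 0.54 (edgeR adjusted p = 2.8e-04) on the log2 scale. FEN1, a flap endonuclease gene of DNA replication whose model shares 49 exon bases with FADS2, had a log2 fold change of 0.47 in knockdown against control (edgeR adjusted p = 0.0028) and 0.29 in rescue against knockdown (edgeR adjusted p = 0.11).

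ELOVL5 and ELOVL7 were lowest in control and had their highest mean in rescue, whereas ELOVL6 had its highest mean in knockdown. The promoters of these 3 elongase genes are set side by side because their products share an enzymatic reaction. The windows are from RefSeq on GRCh38.p14, each on the minus strand and 250 bases before to 50 after the start: chr6:53348901-53349200 for ELOVL5, chr4:110198566-110198865 for ELOVL6 and chr5:60844220-60844519 for ELOVL7. Capitals mark CCAAT boxes on either strand and the E-box CACGTG.
ELOVL5 promoter: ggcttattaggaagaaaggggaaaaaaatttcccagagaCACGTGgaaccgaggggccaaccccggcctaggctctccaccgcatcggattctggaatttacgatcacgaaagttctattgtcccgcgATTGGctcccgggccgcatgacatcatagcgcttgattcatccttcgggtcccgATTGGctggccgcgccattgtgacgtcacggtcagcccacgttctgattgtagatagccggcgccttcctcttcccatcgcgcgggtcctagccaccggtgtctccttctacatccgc
ELOVL6 promoter: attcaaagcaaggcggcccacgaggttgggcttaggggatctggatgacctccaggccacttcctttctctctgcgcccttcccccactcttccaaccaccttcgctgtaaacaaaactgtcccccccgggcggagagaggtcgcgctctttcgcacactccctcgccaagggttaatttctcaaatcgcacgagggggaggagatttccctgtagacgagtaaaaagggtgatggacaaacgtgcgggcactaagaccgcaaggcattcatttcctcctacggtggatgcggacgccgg
ELOVL7 promoter: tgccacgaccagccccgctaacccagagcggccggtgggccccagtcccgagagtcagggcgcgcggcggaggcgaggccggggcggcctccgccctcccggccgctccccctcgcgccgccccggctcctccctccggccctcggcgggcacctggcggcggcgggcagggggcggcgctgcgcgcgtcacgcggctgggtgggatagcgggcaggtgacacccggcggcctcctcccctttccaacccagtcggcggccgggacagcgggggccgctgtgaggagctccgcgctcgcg
ELOVL5 held an E-box at -211 from the start and CCAAT boxes at -122 and -68, while the windows of ELOVL6 and ELOVL7 held neither motif.

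ELOVL7 (ENSG00000164181.13_3), an elongase of long saturated acyl chains, had the largest log2 fold change of the 10 genes in each of the 3 comparisons. It had 41.7, 44.3 and 40.1 CPM in rescue libraries, 24.9, 24.5 and 22.6 CPM in knockdown libraries, and 7.70, 6.63 and 6.85 CPM in control libraries. The 3 groups were clearly apart. ELOVL7 rose 3.39-fold in knockdown against control (1.76 on the log2 scale, SE 0.12, edgeR adjusted p = 9.1e-13) and 1.75-fold in rescue against knockdown (0.81 on the log2 scale, SE 0.10, edgeR adjusted p = 3.5e-06). Rescue against control came to 5.94-fold (edgeR adjusted p = 1.3e-16). It was also a low-count gene in control, with 206, 143 and 151 reads.

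ELOVL6 (ENSG00000170522.9_2), which extends palmitate to stearate, was highest in knockdown. It had 17.9, 15.5 and 16.9 CPM in rescue libraries, 21.8, 22.8 and 25.9 CPM in knockdown libraries, and 18.1, 17.3 and 15.7 CPM in control libraries. The knockdown libraries stood above the other 6, and rescue and control libraries overlapped. ELOVL6 rose in knockdown against control by a log2 fold change of 0.46 (SE 0.12, edgeR adjusted p = 0.0033) and fell in rescue against knockdown by 0.49 log2 units (SE 0.12, edgeR adjusted p = 0.0064). Without knockdown replicate 3, the highest library, the fall no longer passed the threshold (edgeR adjusted p = 0.051). Rescue against control gave a log2 fold change of -0.03 with a 95% interval of -0.27 to 0.22, and its sign turned in 2 of the fits with 1 library left out, at 0.02 without control replicate 1 and 0.03 without rescue replicate 2.

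ELOVL5 (ENSG00000012660.13_3), an elongase of polyunsaturated chains that is a known androgen target in prostate cells, had 358.3, 350.5 and 316.8 CPM in rescue libraries, 283.7, 283 and 318.6 CPM in knockdown libraries, and 161.1, 164.7 and 173.6 CPM in control libraries. The lowest rescue library fell just under the highest knockdown library, and both groups were above control. Knockdown against control had a log2 fold change of 0.83 (SE 0.07, edgeR adjusted p = 5.4e-10). Rescue against knockdown had 0.21 with a 95% interval of 0.06 to 0.36 (edgeR adjusted p = 0.062). That comparison passed the threshold without control replicate 1 (edgeR adjusted p = 0.030), without knockdown replicate 3 (edgeR adjusted p = 0.033) or without rescue replicate 3 (edgeR adjusted p = 0.041).

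SREBF1 (ENSG00000072310.16_3), the activator gene, was lowest in rescue. It had 810.2, 791.4 and 849 CPM in rescue libraries, 994.1, 1004 and 1065 CPM in knockdown libraries, and 937.8, 938 and 886.8 CPM in control libraries. Rescue libraries were the lowest and knockdown libraries the highest, with no overlap. SREBF1 fell in rescue against knockdown by 0.32 on the log2 scale (SE 0.07, edgeR adjusted p = 0.0035). Knockdown against control had a log2 fold change of 0.15 with a 95% interval of 0.00 to 0.30 (edgeR adjusted p = 0.12), and rescue against control had -0.17 with a 95% interval of -0.32 to -0.02 (edgeR adjusted p = 0.061). Messenger RNA does not report the proteolytic release of SREBP-1, which was not measured. SREBF1 shares 556 exon bases, 6.92% of its exons, with RAI1 on the opposite strand, and RAI1 itself fell in knockdown against control by 0.36 log2 units (edgeR adjusted p = 0.0014).

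**Figure D2:**
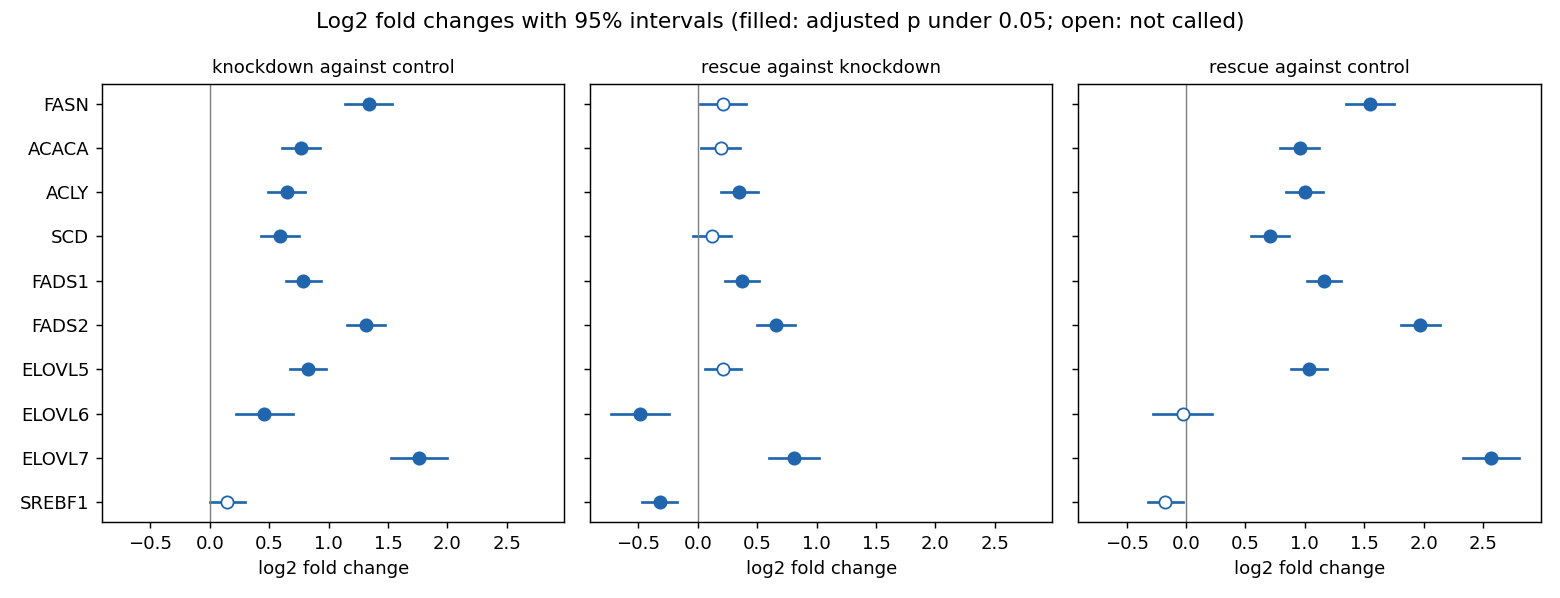
Log2 fold change (horizontal axis) of the 10 genes in knockdown against control, rescue against knockdown and rescue against control, with 95% intervals; filled points have an edgeR adjusted p under 0.05. The enzyme genes lie right of 0 in knockdown against control, and ELOVL6 and SREBF1 lie left of 0 in rescue against knockdown at -0.49 and -0.32.

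Set side by side, the contrasts share libraries and are not independent. In rescue against knockdown 4 of the 10 genes were called higher, ACLY, FADS1, FADS2 and ELOVL7, and 2 lower, ELOVL6 and SREBF1, where 10.1% of all tested genes were called, 5.20% higher and 4.88% lower. In rescue against control 8 were called higher and 0 lower, beside 37.8% of all tested genes, 19.0% higher and 18.8% lower. Beside the values given above, the log2 fold change there was 0.96 for ACACA, 1.00 for ACLY, 0.71 for SCD, 1.16 for FADS1 and 1.04 for ELOVL5, with edgeR adjusted p of at most 2.8e-08. Without adjustment 1 of the 10, SREBF1, was lower there at the 0.05 threshold in edgeR, and limma voom and DESeq2 each called 1 of the 10 lower, SREBF1. The median log2 fold change of the 10 was 0.21 in rescue against knockdown and 1.02 in rescue against control, beside -0.005 and -0.003 over all tested genes. The libraries of the groups compared did not overlap for 10 of the 10 genes in knockdown against control, where this held for 42.5% of tested genes, for 9 in rescue against knockdown (27.5% of tested genes) and for 9 in rescue against control (48.1% of tested genes).

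A stricter test asked whether each change was above 1.5-fold. It called 5 of the 10 higher in knockdown against control, FASN, FADS1, FADS2, ELOVL5 and ELOVL7, beside 3.12% of tested genes higher and 3.08% lower. In rescue against control it called 7 higher, all enzyme genes but SCD and ELOVL6, beside 4.24% of tested genes higher and 3.82% lower. In rescue against knockdown it called 0 of the 10 in either direction, beside 0.381% of tested genes higher and 0.234% lower, although 6 of the 10 had passed the plain edgeR test there.

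Ratios of counts within a library do not depend on how libraries are scaled, and they can be compared between groups. They are not corrected for gene length, so a single ratio does not give the level of one gene relative to another. The FADS2/FADS1 ratio was 4.33 ± 0.101 in rescue, 3.55 ± 0.0146 in knockdown and 2.46 ± 0.102 in control (SD, n = 3 each), with no overlap between groups. SCD/FASN was 0.521 ± 0.0119 in rescue, 0.559 ± 0.0711 in knockdown and 0.946 ± 0.118 in control, with rescue and knockdown overlapping. Relative to FASN, SCD counts were thus lower in every rescue and knockdown library than in any control library. ELOVL7/ELOVL6 was 2.52 ± 0.291 in rescue, 1.03 ± 0.14 in knockdown and 0.414 ± 0.0274 in control. FASN/SREBF1 was 6.83 ± 0.231 in rescue, 4.71 ± 0.22 in knockdown and 2.07 ± 0.322 in control, again with no overlap. In two-sided exact permutation tests of the log2 ratios, 11 of the 12 comparisons gave p = 0.1 (adjusted p = 0.11 over 12 tests), the smallest that 3 libraries against 3 allow. SCD/FASN in rescue against knockdown gave an exact permutation p of 0.4 (adjusted 0.4).

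**Figure D3:**
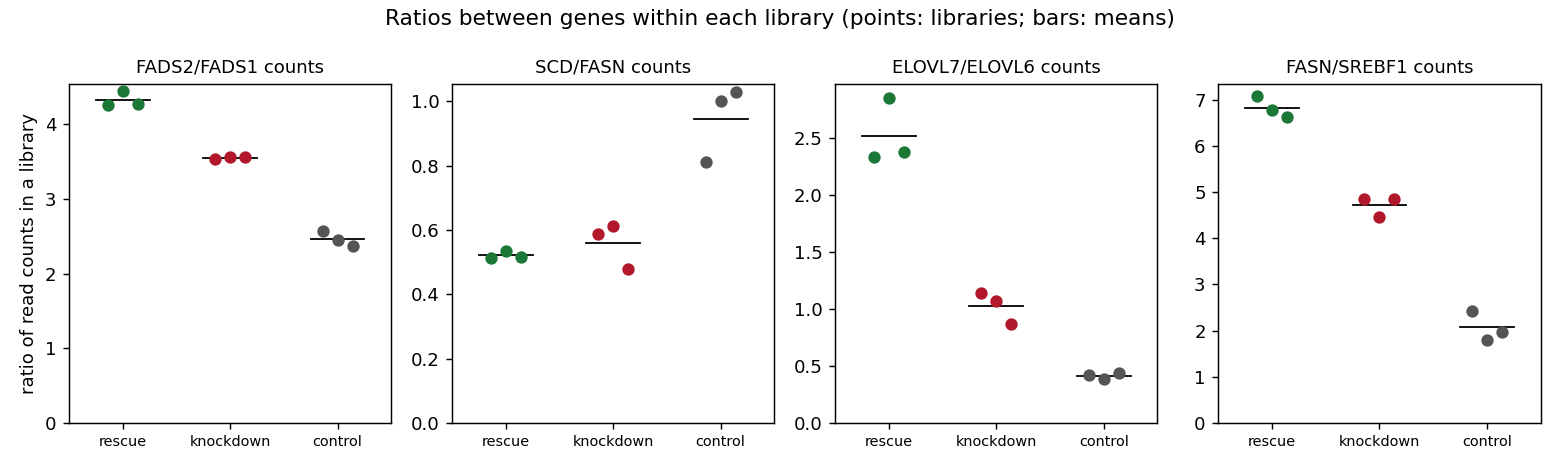
Ratio of read counts of 2 genes within each library (vertical axes, linear from 0) for FADS2/FADS1, SCD/FASN, ELOVL7/ELOVL6 and FASN/SREBF1; points are libraries and bars are means of 3 rescue, knockdown or control libraries. The groups are apart for each ratio except SCD/FASN, where rescue and knockdown overlap.

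Levels of different genes were compared per length, as TPM (transcript abundance scaled for length and depth) computed from the counts and GENCODE v29 exon lengths. FASN had 1903 ± 103 TPM in rescue, 1631 ± 170 TPM in knockdown and 651 ± 126 TPM in control, and ranked 55, 65 and 141 among all genes in those groups. SCD had 1731 ± 55.9 TPM in rescue, 1580 ± 141 TPM in knockdown and 1059 ± 66.4 TPM in control. In control SCD was above FASN in every library, in knockdown the ranges of both genes overlapped, and in rescue FASN was above SCD in every library.

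Below FASN and SCD, the order in rescue was ACLY, FADS2, SREBF1, ELOVL5, ACACA, FADS1, ELOVL7 and ELOVL6, with the ranges of ACACA and FADS1 overlapping. In knockdown the order was ACLY, SREBF1, FADS2, ELOVL5, ACACA, FADS1, ELOVL7 and ELOVL6, with overlap between FADS2 and ELOVL5 and between ACACA and FADS1. In control it was SREBF1, ACLY, ELOVL5, FADS2, ACACA, FADS1, ELOVL6 and ELOVL7, with overlap between SREBF1 and ACLY. FADS2 stood above SREBF1 in rescue and below it in knockdown and control, and averaged 454 ± 24.8 TPM in rescue, 285 ± 23.2 TPM in knockdown and 115 ± 10.9 TPM in control. ELOVL7 changed places with ELOVL6 at the low end, with 29.3 ± 1.09 TPM in rescue, 16.6 ± 1.17 TPM in knockdown and 4.93 ± 0.51 TPM in control, ranks 4913, 7328 and 12134. These orders depend on the length used. With the longest transcript in place of all exons, 4 of the 10 genes changed place in each group. FADS2 was then above ACLY in rescue, SREBF1 above ACLY in knockdown, FADS2 above ELOVL5 in control, and FADS1 above ACACA in all groups. That length gave FADS2 738 ± 38.8 TPM in rescue, 458 ± 37.7 TPM in knockdown and 189 ± 19.9 TPM in control, and FADS1 191 ± 12.3 TPM in rescue, 145 ± 12.5 TPM in knockdown and 85.8 ± 5.74 TPM in control, against 113 ± 7.35, 86.6 ± 7.39 and 50.4 ± 2.83 TPM with all exons.

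**Figure D4:**
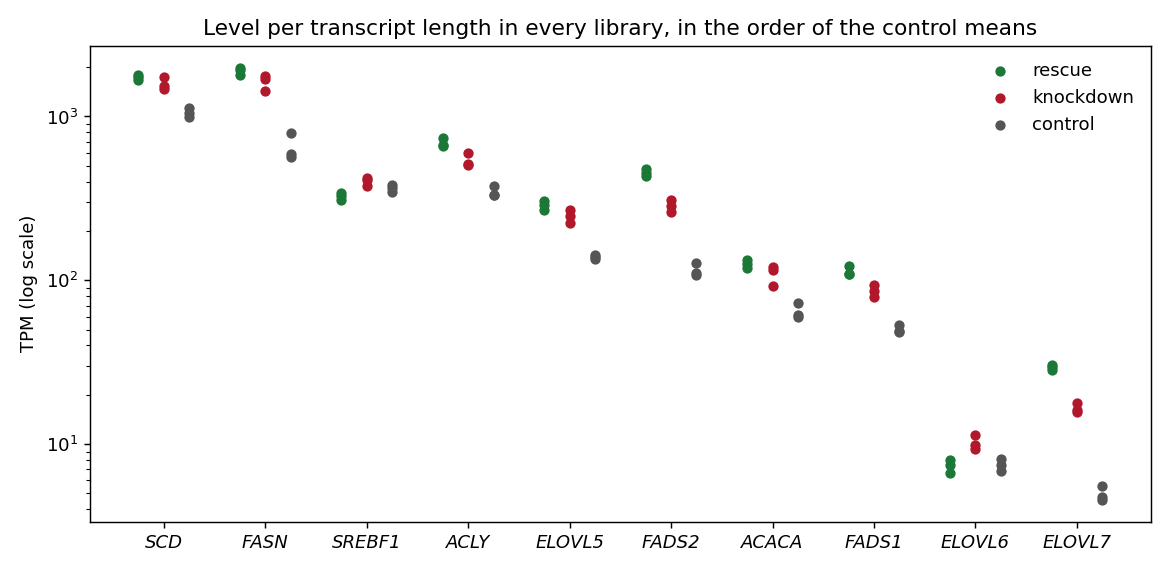
TPM (vertical axis, log scale) of the 10 genes in each rescue, knockdown and control library, with genes in the order of their control means; each point is 1 library. SCD leads in control and FASN in rescue, and ELOVL6 and ELOVL7 are the lowest in every group.

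The promoter windows of 9 of the 10 genes were in the RefSeq table, 13 windows of 300 bases in all; that of FASN was not. Windows were searched on both strands for CCAAT, for the E-box CACGTG, for the GC box GGGCGG and for the sterol regulatory element TCACNCCAC. CCAAT was found in 5 genes, ACACA, ACLY, SCD, FADS2 and ELOVL5, and in 34.6% of 35116 promoter windows in the table. The E-box was found in ELOVL5 alone among the 9 and in 7.26% of all windows. The GC box was found in 8 genes and in 45% of all windows. The sterol regulatory element in this spelling was found in 0 of the 9 and in 1.13% of all windows. No match of one motif overlapped a match of another in these 13 windows, and a gene with several starts had several chances of a match.

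The surrounding lipid genes changed in both directions. The counts of each list below stand beside the shares of all tested genes. These were 16.5% higher and 15.6% lower in knockdown against control, and 5.20% higher and 4.88% lower in rescue against knockdown. Elongation needs a dehydratase and a pair of reductases beside the elongase. Of 6 tested genes of this cycle outside the 10, 4 rose in knockdown against control, with a median log2 fold change of 0.34. The elongase gene ELOVL1 was among these 4. ELOVL1, an elongase of very long saturated chains, averaged 165 ± 2.02 CPM in rescue, 224 ± 13.1 CPM in knockdown and 145 ± 5.24 CPM in control, with a log2 fold change of 0.63 in knockdown against control (edgeR adjusted p = 3.7e-08) and -0.44 in rescue against knockdown (edgeR adjusted p = 6.0e-05). HACD2, a dehydratase of the cycle, rose in knockdown against control by a log2 fold change of 0.72 (edgeR adjusted p = 7.1e-08). Rescue against knockdown had 1 gene higher, the ketoacyl reductase gene HSD17B12 at a log2 fold change of 0.44 (edgeR adjusted p = 0.025), and 2 lower, ELOVL1 and the enoyl reductase gene TECR at a log2 fold change of -0.22 (edgeR adjusted p = 0.049).

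Among 6 other desaturase, carboxylase and electron-donor genes, 1 rose and 3 fell in knockdown against control, with a median log2 fold change of -0.26. The gene that rose was CYB5A, the cytochrome b5 gene that passes electrons to desaturases, at a log2 fold change of 0.44 (edgeR adjusted p = 7.5e-04). ACACB and FADS3, described above, fell, as did FADS6, which had only 2, 7 and 13 counts in rescue, 0, 1 and 0 in knockdown and 5, 12 and 9 in control. Relative to knockdown, in rescue FADS3 fell, FADS6 rose, and SCD5, the other human stearoyl-CoA desaturase gene, rose by 0.32 log2 units (edgeR adjusted p = 0.041).

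For acetyl-CoA and NADPH supply, 4 of 10 genes rose and 1 fell in knockdown against control, with a median log2 fold change of 0.27. MPC2, a subunit of the mitochondrial pyruvate carrier, averaged 331 ± 18.3 CPM in rescue, 307 ± 17.2 CPM in knockdown and 152 ± 29.1 CPM in control, a log2 fold change of 1.02 in knockdown against control (edgeR adjusted p = 1.3e-07). ACSS2, which makes acetyl-CoA from acetate, rose by 0.69 log2 units (edgeR adjusted p = 3.4e-08). In rescue against knockdown 0 of the 10 supply genes were called higher and 2 lower. TKT, transketolase of the pentose phosphate pathway, fell there by 0.36 log2 units (edgeR adjusted p = 7.4e-04).

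Of 8 genes that activate or import fatty acids, 4 rose and 1 fell in knockdown against control, with a median log2 fold change of 0.28. ACSL3, a long-chain acyl-CoA synthetase found on lipid droplets, averaged 193 ± 9.39 CPM in rescue, 150 ± 8.38 CPM in knockdown and 83.6 ± 3.6 CPM in control and rose in both steps, by 0.84 log2 units (edgeR adjusted p = 3.0e-10) and 0.37 log2 units (edgeR adjusted p = 7.5e-04). ACSL1, of the same family, rose in both steps too, by 0.43 log2 units (edgeR adjusted p = 1.9e-05) and 0.37 log2 units (edgeR adjusted p = 6.0e-04). In rescue against knockdown 2 of the 8 were called higher, ACSL3 and ACSL1, and 0 lower. SLC27A2, a very long-chain acyl-CoA synthetase, rose in knockdown against control by 0.85 log2 units (edgeR adjusted p = 9.9e-06). The gene that fell was ACSL5, whose libraries overlapped, with 11, 3 and 3 counts in rescue, 8, 10 and 2 in knockdown and 11, 31 and 36 in control.

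Of 14 regulators of lipogenesis, 5 rose and 1 fell in knockdown against control, with a median log2 fold change of 0.16. INSIG1, which retains the SREBP escort protein in the endoplasmic reticulum and is itself an SREBP target, averaged 683 ± 43.1 CPM in rescue, 629 ± 45 CPM in knockdown and 335 ± 20.2 CPM in control, with a log2 fold change of 0.91 in knockdown against control (edgeR adjusted p = 2.0e-10). MID1IP1, whose product promotes polymerisation of acetyl-CoA carboxylase, rose by 0.72 log2 units (edgeR adjusted p = 2.9e-09) and fell in rescue against knockdown by 0.25 log2 units (edgeR adjusted p = 0.017). MLXIPL, the gene of the carbohydrate-responsive factor ChREBP, fell in knockdown against control by 0.52 log2 units (edgeR adjusted p = 0.017). PRKAA1, a catalytic subunit gene of the kinase that inhibits acetyl-CoA carboxylase, rose in rescue against knockdown by 0.26 log2 units (edgeR adjusted p = 0.022). In that comparison 1 of the 14 regulators was called higher, PRKAA1, and 1 lower, MID1IP1, while 12 were not called.

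Of 9 tested sterol pathway genes under SREBP control, 5 rose and 1 fell in knockdown against control, with a median log2 fold change of 0.24. MSMO1, a sterol demethylation gene, averaged 126 ± 14.1 CPM in rescue, 102 ± 9.37 CPM in knockdown and 49.5 ± 0.893 CPM in control and rose by 1.04 log2 units (edgeR adjusted p = 1.3e-10) and then by 0.32 log2 units in rescue against knockdown (edgeR adjusted p = 0.013). FDFT1, squalene synthase, rose by 0.83 log2 units (edgeR adjusted p = 1.3e-09). SQLE, squalene epoxidase, had a log2 fold change of 0.24 and did not pass (edgeR adjusted p = 0.088). LSS, lanosterol synthase, fell in knockdown against control by 0.47 log2 units (edgeR adjusted p = 4.7e-04), and MVD, a mevalonate decarboxylase gene, fell in rescue against knockdown by 0.36 log2 units (edgeR adjusted p = 0.032). In rescue against knockdown 2 of the 9 were called higher and 1 lower.

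The remaining lists covered glycerolipid assembly, oxidation and mitochondrial fatty acid synthesis. Of 12 glycerolipid and droplet genes, 1 rose and 2 fell in knockdown against control, beside 16.5% and 15.6% of all tested genes. Their median log2 fold change was -0.03, and the changed genes are named for description only. The changed genes were the phosphatidate phosphatase genes LPIN1 at a log2 fold change of 0.36 (edgeR adjusted p = 5.5e-04) and LPIN3 at a log2 fold change of -0.66 (edgeR adjusted p = 4.3e-07), and the droplet coat gene PLIN3 at a log2 fold change of -0.33 (edgeR adjusted p = 0.0034). Of 12 oxidation and lipolysis genes, 3 rose and 1 fell, with a median log2 fold change of 0.13. ACADM, the medium-chain acyl-CoA dehydrogenase gene, averaged 62.4 ± 9.49 CPM in rescue, 54.9 ± 5.74 CPM in knockdown and 23.7 ± 1.84 CPM in control and rose by 1.21 log2 units (edgeR adjusted p = 9.2e-10). ACADVL, for very long chains, rose by 0.35 log2 units (edgeR adjusted p = 8.8e-04), and HADHB of the trifunctional protein fell by 0.41 log2 units (edgeR adjusted p = 4.9e-04). The short-chain gene ACADS fell in rescue against knockdown by 0.40 log2 units (edgeR adjusted p = 0.013), where 0 of the 12 were called higher and 1 lower. Of 6 mitochondrial fatty acid synthesis genes, 3 rose in knockdown against control, with a median log2 fold change of 0.32. HSD17B8 and OXSM, a ketoacyl reductase subunit and the ketoacyl synthase, rose by 0.62 log2 units (edgeR adjusted p = 2.4e-04) and 0.46 log2 units (edgeR adjusted p = 7.4e-04).

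**Figure D5:**
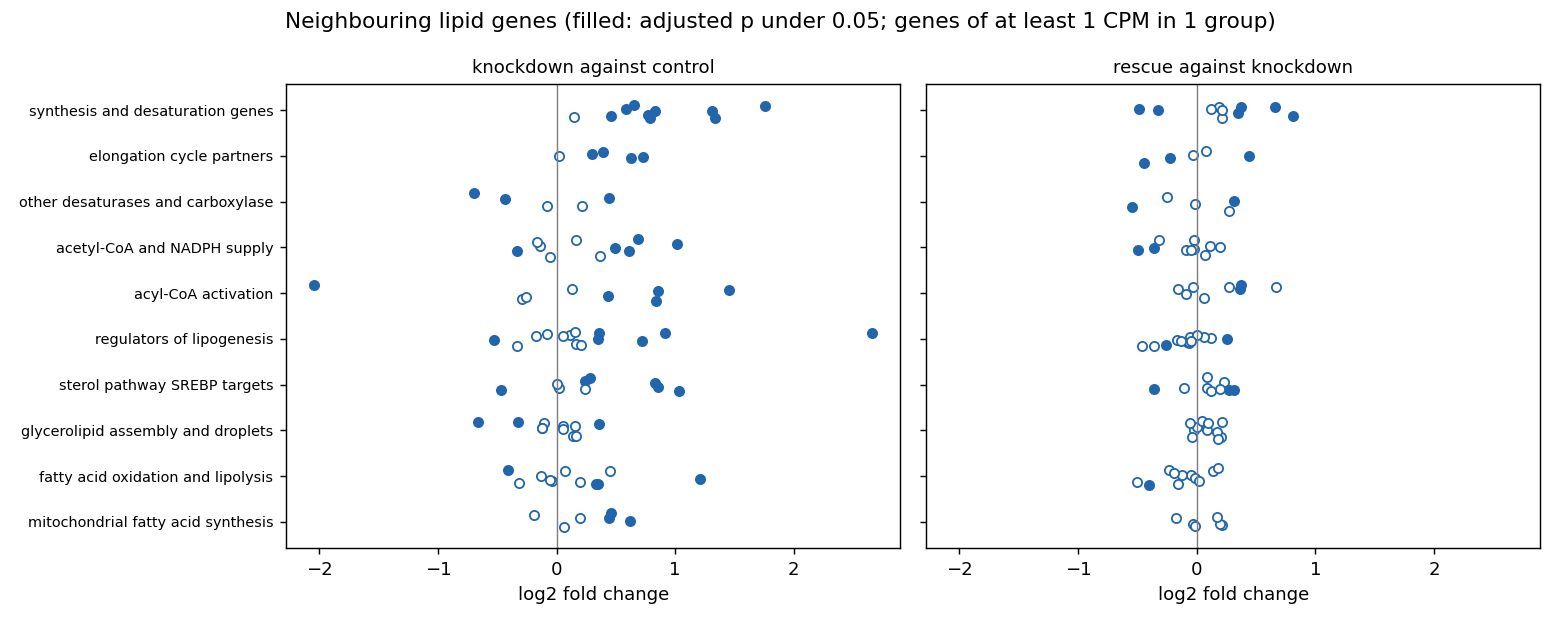
Log2 fold change (horizontal axis) of knockdown over control and of rescue over knockdown for each gene of the 10 and of the surrounding lipid gene lists that reached 1 CPM in 1 group; each point is a gene, filled where the edgeR adjusted p is under 0.05. The top row lies right of 0 in knockdown against control, and the glycerolipid and oxidation rows lie on both sides of it.

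Genes whose log2 CPM was most like that of a given gene over the 9 libraries were listed. The candidates were 11532 genes averaging at least 5 CPM. The 10 genes themselves were left out of the candidates, so they enter neither the lists nor the counts below. Genes of the Y chromosome, XIST and rows without a symbol were left out too. The 9 libraries fall into 3 groups, so the measure mainly reads the group means, and it is a description. Most like FASN were WWC1 (Pearson r = 0.997), BHLHA15, LRRC26, TNK2 and SLC16A3, and 243 genes had r above 0.95. Most like FADS2 were PITPNA (r = 0.997), NIPA2, SLC45A3, H2BC5 and MMP15, and 311 genes had r above 0.95. For SREBF1 6 genes had r above 0.95, led by NFKB2 (r = 0.970), FAM118A, FPGS, BCLAF1 and ZC3H12A. The largest log2 fold change of SREBF1 between groups was -0.32, against 1.55 for FASN and 1.97 for FADS2. Differences among libraries of a group thus weigh more in r for SREBF1, and the 3 counts of genes are not comparable. SLC45A3, which encodes the prostate protein prostein, averaged 195 ± 8.46 CPM in rescue, 100 ± 8.44 CPM in knockdown and 34.8 ± 1.67 CPM in control (SD, n = 3 each).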

How the data were processed

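RNA from 9 LNCaP libraries was sequenced. The authors deposited raw counts of reads per gene for each library. The submitters' processing notes name the hg19 build and the tools HTSeq, HISAT2, cutadapt and FastQC; neither versions nor the strand setting is given in the sources used here. Symbols were found for 56414 of 60880 gene rows in the symbol table and for 444 more in GENCODE v29, and 4022 rows stayed without one. Summary rows that name no gene were left out; they held 48.83% to 50.71% of reads in no gene, 2.26% to 2.67% ambiguous and 5.26% to 7.62% not uniquely aligned.

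In R 4.3.3, edgeR 4.0.16 kept 18389 genes (filterByExpr, minimum count 10). Libraries were scaled by TMM, and a robust quasi-likelihood model was fitted to all 9 libraries, each group having its own mean and 6 degrees of freedom being left for the spread, with Benjamini-Hochberg adjustment over all tested genes and a threshold of 0.05. CPM use TMM-adjusted library sizes and are given as mean ± SD; each SE was worked out as the size of the log2 change divided by the root of the F statistic. The glmTreat test required 1.5-fold. Alternatives included limma 3.58.1, DESeq2 1.42.0, other scalings and filters, and leaving out each library. The scripts were tested on simulated data. TPM used GRCh38 gene models, of another build than the counts, for lengths and overlaps only. RefSeq promoters are on GRCh38.p14. Protein identity was not analysed here.

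The genes and lists were chosen with earlier results of these data known. The text names the 10 genes, UGT2B28, FEN1, FADS3, INSIG1 and SQLE, up to 2 genes per direction and list with the smallest adjusted p in either of the contrasts with the knockdown libraries (knockdown against control, rescue against knockdown), and the 5 genes most like FASN, FADS2 and SREBF1. Some genes that this rule takes are not reported here. RAI1, which overlaps SREBF1, was added after its values were seen. Of the other marker lists, neuroendocrine markers summed to 1.12 to 1.76 CPM in rescue, 0.876 to 1.43 CPM in knockdown and 0.464 to 1.09 CPM in control, and immune markers to 2.11 to 3.14, 2.52 to 3.54 and 2.17 to 3.18 CPM in those groups. In each of these lists only 1 marker, SYP and CD68 in turn, averaged above 1 CPM over all libraries.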

Additional observations from a re-analysis of the deposited data

How the results depend on the processing

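Over the 10 genes, 3 comparisons and the alternatives run, 263 values with 1 library left out kept their direction and side of the threshold, 4 gained a call, 1 lost it and 2 reversed; under other alternatives 276 values kept both, 13 gained a call and 11 lost it. Requiring a change above 1.5-fold left 1141 genes called in knockdown against control, 113 in rescue against knockdown and 1482 in rescue against control; of the 10 genes, 5 were then higher in knockdown against control, and 0 were higher and 0 lower in rescue against knockdown. Of the 10 genes, 1 (SREBF1) was called lower in rescue against control with total counts in place of TMM, a minimum count of 50, the replicate block, limma voom or DESeq2. With 1 library left out, 1196 to 2363 genes were called in rescue against knockdown, the fewest without rescue replicate 1, and 1 to 2 of the 10 were lower there, 1 without knockdown replicate 3. ELOVL6 in rescue against control ran from -0.082 to 0.026 with 1 library left out, and was above 0 without control replicate 1 (0.02) or rescue replicate 2 (0.026). Using the longest transcript moved 4 genes in the order of levels in each of the rescue, knockdown and control groups. The cause of these shifts was not tested, beyond the stricter null of the 1.5-fold test.

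Over all tested genes, libraries with the same number did not deviate together (correlations of -0.037 to 0.077 over 9 pairs, -0.089 to 0.077 for other pairs). Whether they were handled together is not stated, and these correlations cannot settle it. With the replicate block 6348 genes were called in knockdown against control, 2319 in rescue against knockdown and 7363 in rescue against control. Without the block, as in the main fit, the counts were 5899, 1854 and 6946. Under the block ACACA passed in rescue against knockdown (edgeR adjusted p = 0.042). ELOVL5 passed there under 9 of 19 alternatives and FASN under 2. The median log2 fold change of all tested genes in knockdown against control was -0.03 with total counts, 0.01 with RLE scaling and 0.01 with TMM scaling without mitochondrially encoded genes, beside 0.01 with TMM. With 206, 143 and 151 control reads for ELOVL7 and 347 to 572 for ELOVL6 in knockdown and control, counting error is larger for these than for the other 8 genes.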
